A study of Drosophila melanogaster with 15 samples.

Results

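RNA from the heads of flies with a neuronal knockdown of Clic was compared with RNA from the heads of flies that carried the driver alone. The elav/v105975 flies carried elav-Gal4, which makes the yeast activator Gal4 in neurons, together with v105975, a UAS transgene that encodes a hairpin RNA against Clic once Gal4 binds its UAS sites. The elav/+ flies carried elav-Gal4 without the hairpin transgene. The comparison rests on 10 arrays, 5 per genotype, of the 15 arrays of the series, and takes in all 16322 probesets of the Affymetrix Drosophila Gene 1.0 ST array. The other 5 arrays held heads of v105975/+ flies, which had v105975 but no driver. Their levels are given as values, with no test, beside many of the genes described but not all. Where they are not given, the text does not show how much of a change the undriven line shared.

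Head RNA was total RNA from whole heads, so neurons, glia, photoreceptors, fat body, muscle and blood cells all contributed to it, while Gal4 was driven in neurons. A single hairpin line was used, and elav/v105975 differed from elav/+ by the transgene and any other allele that came with that line as well as by the amount of Clic RNA. In the comparison of these 10 arrays the effects of less Clic RNA and of the transgenic line cannot be told apart. Age and sex of the flies are not given in the sources used here, nor is it stated that arrays of the same genotype stem from independent crosses or batches of heads. The p-values below therefore measure the spread between these arrays, which may be technical. The authors' values are log2 intensities made by RMA, in which a difference of 1 is a 2-fold change, and were tested with limma. A probeset was called at an adjusted p (Benjamini-Hochberg over all 16322 probesets) of 0.05 or less. An array's median lay between 6.16 and 6.24, and its mean correlation with the other arrays of its genotype between 0.993 and 0.995. With 5 arrays per genotype, precision is set by their number.

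Chloride intracellular channels are small proteins that exist in a soluble form related to glutathione S-transferases and in a membrane form that passes ions, and the change between the forms depends on redox conditions. Clic is the sole fly member of this family. In the Gal4-UAS system a driver line decides where a transgene is transcribed, and the hairpin RNA is cut into short interfering RNAs that direct the destruction of the matching mRNA. A fly head holds mostly brain and retina, with a layer of fat body that makes yolk and lipid carrier proteins, immune peptides and many enzymes of amino acid breakdown.

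Clic, on the X chromosome, stood at 8.42, 8.28, 8.35, 8.50 and 8.44 in the 5 elav/v105975 arrays and at 9.23, 9.14, 9.15, 9.17 and 9.09 in the 5 elav/+ arrays. The groups did not overlap, with the knockdown arrays the lower. The log2 fold change was -0.76 (SE 0.054, adjusted p = 2.66e-05), which leaves 59.0% of the driver-only level with a 95% confidence interval from 54.3% to 64.1%. The exact two-sided permutation test over all divisions of the 10 arrays into 5 and 5 gave p = 0.00794, the smallest it can give. The v105975/+ arrays lay between the groups, at 8.85, 8.97, 8.96, 8.86 and 9.05. All 5 were below every elav/+ array, and their level was 85.9% of the driver-only level. The study reports a significant fall of Clic in v105975/+ flies. It proposes some hairpin expression without a driver, which was not tested here. Because cells without Gal4 also contribute Clic RNA to a head, the loss within neurons cannot be read from the 59.0%. Fewer cells of a type and less RNA per cell cannot be told apart in any result below.

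The white gene w, which encodes an eye pigment transporter, marks many fly transgenes in a shortened form, and its probeset reads such copies too. It rose by 3.98 on the log2 scale (15.8-fold, SE 0.066, adjusted p = 7.03e-11). It was at 7.31 to 7.62 in the elav/+ arrays, 11.39 to 11.51 in the elav/v105975 arrays and 7.02 to 7.38 in the v105975/+ arrays. By the study's account the marker copies of elav/v105975 flies were 2-fold those of elav/+ flies, so w is no measure of knockdown. Whether copy number accounts for a rise of 15.8-fold was not tested. The neuronal gene elav stood at 9.97 ± 0.041 (SD, n = 5) against 9.90 ± 0.037 (SD, n = 5) and was not called (log2 fold change 0.07, adjusted p = 0.407). The gene tio, a transcription factor gene next to an insertion site known from hairpin lines of this kind, had values of 6.36 to 6.67 and 6.38 to 6.51 and was not called either (log2 fold change 0.08, adjusted p = 0.516).

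Few of the defining markers fixed for the head's cell types were called. None of the 4 neuronal markers (elav, nSyb, brp, Syt1), the 4 glial markers (repo, Eaat1, alrm, moody) or the 3 haemocyte markers measured (Hml, NimC1, He) was called, and of 3 photoreceptor markers chp and trp rose by 0.23 and 0.30 on the log2 scale (adjusted p = 0.018 and 0.026). Of 4 head fat body markers measured apolpp was called lower (-0.34), and Yp1 (-0.28), Yp2 (-0.46) and Lsp2 (0.04) were not called. Of 3 muscle markers Mhc was called higher (0.37), and up (0.26) and Act88F (-0.21) were not called. A wider list of 13 haemocyte genes had 2 called lower, and 0 unless elav/+ replicate 2 or elav/v105975 replicate 4 or 5 was the array left out. Summed over a list on the linear scale, the 14 neuronal marker genes of a wider list ran from 24825 to 25719 intensity units in the elav/v105975 arrays, from 22020 to 23932 in the elav/+ arrays and from 23818 to 25409 in the v105975/+ arrays. The 20 genes of yolk, serum and fat body proteins ran from 20580 to 33151, from 30818 to 35500 and from 23100 to 27601 in the same order. All 14 neuronal genes had a fold change above 0 and 16 of the 20 fat body genes one below 0, with 4 of the neuronal genes called higher and 2 of the fat body genes called lower. The 4 neuronal calls became 1 without elav/+ replicates 2, 3 or 5 or elav/v105975 replicate 2, and 2 without elav/+ replicate 4 or elav/v105975 replicates 1, 4 or 5. The 2 fat body calls became 0 without elav/+ replicates 3, 4 or 5 or elav/v105975 replicates 1, 2 or 3, 1 without elav/+ replicate 1 or 2, 3 without elav/v105975 replicate 4 and 5 without elav/v105975 replicate 5. The 25 testis and accessory gland markers gave 0 calls with limma (2 at an unadjusted p under 0.05), and the 20 ovary markers gave 0 (2 at an unadjusted p under 0.05). None of these markers was at 0. RMA values have a floor set by background, and the dimmest of them, Acp26Aa, stood at 1.91 and 1.88. Where a group's arrays lie near that level its RNA may not be above background, and the difference is then a lower bound. The part of any shift between neuronal and fat body RNA in the results below was not tested.

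In all, 1132 of the 16322 probesets were called (6.94%). Of these, 486 were higher in elav/v105975 (2.98% of those tested) and 646 were lower (3.96%). The median log2 fold change over all probesets was -0.0017, with 8085 of 16322 above 0. A call was kept whichever of the 10 arrays was left out in 576 of 1132 probesets. Of the called probesets 976 carried 1 gene name, 55 several names and 101 none. Of the called gene names 344 were numbered gene models (CG or CR), with no descriptive name. Counts of calls depended on single arrays. The 486 higher calls became 280, 313, 319 and 260 without elav/+ replicate 3, elav/+ replicate 4, elav/v105975 replicate 1 and elav/v105975 replicate 2, and the 646 lower calls became 410, 421 and 393 without elav/+ replicate 3, elav/+ replicate 4 and elav/v105975 replicate 2.

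Most called changes were small. Absolute changes under 0.32 on the log2 scale accounted for 491 of the 1132 calls (43.4%), those from 0.32 to 0.58 (a 1.5-fold change) for 425 (37.5%), those of 1.5 to 2-fold for 158 (13.96%) and those of at least 2-fold for 58 (5.12%). At least 1.5-fold was reached by 216 probesets, 1.32% of those tested, and 181 of these were kept whichever array was left out. The balance of directions differed by size. Changes from 0.32 to 0.58 comprised 150 higher and 275 lower, changes of 1.5 to 2-fold 55 higher and 103 lower, while the smallest class had 251 higher and 240 lower and the largest 30 higher and 28 lower.

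The size of a called change moved with the intensity of the probeset. Probesets were divided into quartiles by their mean over the 10 arrays, with bounds at 4.28, 6.20 and 7.88 on the log2 scale. The share called was 1.37% in the dimmest quartile, 4.09% in the second, 8.58% in the third and 13.7% in the brightest. In the brightest quartile 327 of 559 calls were changes of less than 0.32 (58.5%), against 10 of 56 in the dimmest (17.9%). Changes of at least 2-fold were spread over all quartiles, with 10, 18, 17 and 13 from the dimmest to the brightest. The median standard error of a fold change fell from 0.113 to 0.058 on the log2 scale from the dimmest to the brightest quartile, and the smallest change that was called was 0.18 in the former and 0.16 in the latter with median called changes of 0.53 and 0.29. The median absolute fold change of all probesets, called or not, was nearly the same in the 4 quartiles (0.09 to 0.10). Probeset intensity also depends on the affinity of its probes, so the quartiles do not rank transcript amounts between genes.

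**Figure D1:**
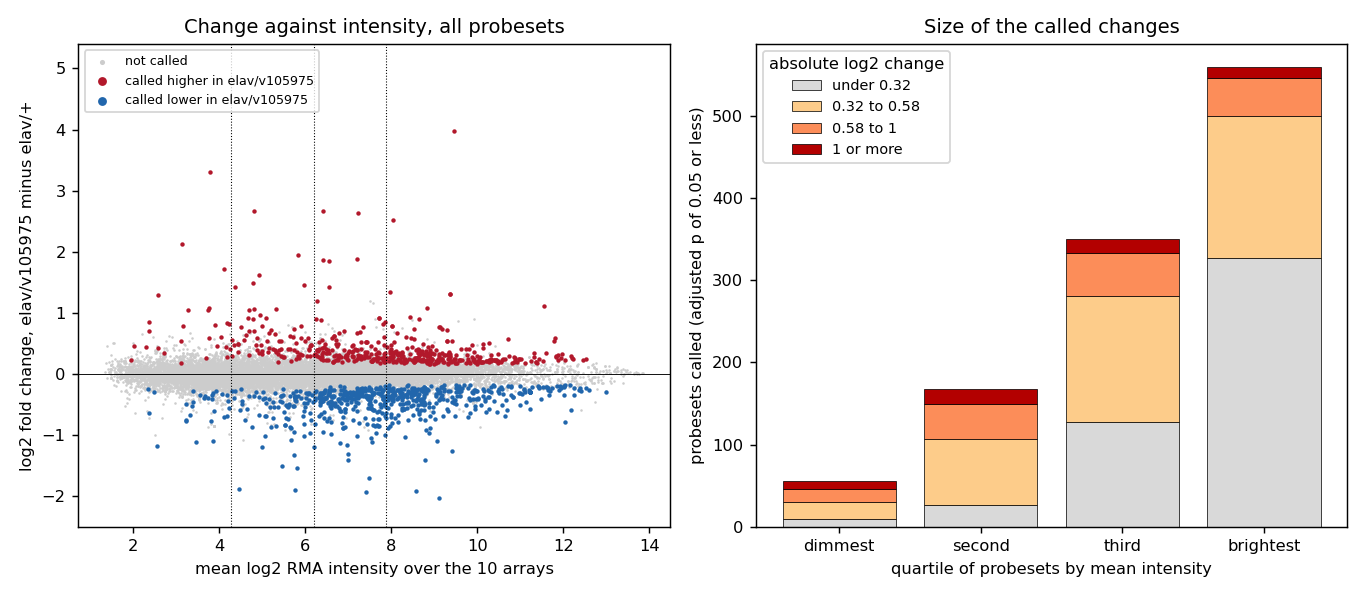
Left, log2 fold change (elav/v105975 minus elav/+) of each of the 16322 probesets against its mean log2 RMA intensity over the 10 arrays, with called probesets in red (486 higher) and blue (646 lower) and dotted lines at the quartile bounds. Right, number of called probesets in each quartile of intensity, divided by size of change; 559 of the 1132 calls lie in the brightest quartile, and 327 of these are under 0.32 on the log2 scale.

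Small structural RNAs, xenobiotic enzymes and immune genes were among the genes with the largest changes, beside w and numbered gene models. Among 218 small nucleolar RNAs (snoRNAs), which guide chemical modification of ribosomal RNA, 17 were called higher and 6 lower (list median 0.04), and 13 of the higher calls were kept whichever array was left out. snoRNA:Psi18S-525c, which by its name guides pseudouridylation of 18S rRNA, stood at 5.54, 5.49, 5.23, 5.39 and 5.54 in elav/v105975 and at 2.07, 2.22, 2.13, 2.47 and 1.74 in elav/+. The difference of 3.31 (SE 0.118, adjusted p = 9.37e-08) lay in the dimmest quartile and is a lower bound, since the elav/+ arrays were near the background level. The v105975/+ arrays ran from 4.92 to 5.65, in the range of elav/v105975. Another copy, snoRNA:Psi18S-525d, rose by 1.95, and snoRNA:Psi28S-3316a rose by 2.64, with the elav/+ arrays at 5.68 to 6.13 and the elav/v105975 arrays at 8.41 to 8.62. Also higher were snoRNA:lola-d (1.85) and snoRNA:Psi18S-640a, by at least 1.29 with the elav/+ arrays near background (1.48 to 2.603), whereas snoRNA:Psi18S-301, chosen after its values were seen, fell by 0.85. The 6 lower calls of the list became 2 without elav/+ replicates 2, 4 or 5 or without elav/v105975 replicates 2, 4 or 5, and 3 without replicate 3 of either genotype. Copies of a snoRNA family can share probes, and such members cannot be told apart.

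The U2 small nuclear RNA, which pairs with the branch site of introns in the spliceosome, gave 4 called probesets out of 24 for small nuclear RNAs. For snRNA:U2:34ABa the arrays read 8.93, 8.79, 9.01, 8.68 and 9.10 in elav/v105975, 7.86, 8.11, 8.07, 7.87 and 7.96 in elav/+ and 8.57, 8.47, 8.82, 8.82 and 8.82 in v105975/+. The groups of the comparison did not overlap (log2 fold change 0.93, SE 0.087, adjusted p = 0.000175), and no call was made for another spliceosomal RNA on the list. The U2 genes have near-identical copies whose probesets share signal. On the whole array 717 probesets fell into 259 sets with identical values, and 56 of the calls were of this kind.

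Cytochrome P450s, membrane oxygenases that act on hormones, insecticides and other foreign compounds, changed in both directions. Of 87 measured, 7 were called higher and 13 lower, 10 of these 20 by at least 1.5-fold, and the list median was -0.02. Cyp6a2, which is linked to insecticide resistance, stood at 9.49, 9.22, 9.46, 9.33 and 9.03 in elav/v105975 and at 6.87, 6.91, 6.87, 6.56 and 6.70 in elav/+. It rose 5.75-fold (log2 2.52, SE 0.099, adjusted p = 1.52e-07), and the v105975/+ arrays read 9.27, 9.54, 9.34, 9.22 and 9.24. Cyp6w1 rose by 1.31, with the elav/+ arrays at 8.56 to 8.87 and the elav/v105975 arrays at 9.81 to 10.17. Its v105975/+ arrays ran from 9.87 to 10.24. Cyp12d1-d, in the dimmest quartile and with a near-identical neighbour whose signal it may share, rose by at least 2.13, with the elav/+ arrays near background (1.86 to 2.38). The largest falls were of Cyp28a5 (-0.96), Cyp9b2 (-0.74) and, among those chosen after their values were seen, Cyp6t3 (-0.86) and Cyp6g1 (-0.57). Cyp28a5 was at 8.30 to 8.53 in elav/v105975, 9.20 to 9.64 in elav/+ and 8.10 to 8.48 in v105975/+, so that, as with Cyp6a2 and Cyp9b2, the undriven hairpin line lay with the driven one.

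Other enzymes of detoxification gave few calls. Of 38 glutathione S-transferases 2 rose and 2 fell (5.26% in each direction, against 2.98% and 3.96% of all probesets), with GstE1 at 0.44 and GstD9 at -0.52. The 2 higher calls became 1 without any array other than elav/+ replicate 3 and elav/v105975 replicate 5, and 3 without the latter. Among 35 UDP-glycosyltransferases, which attach sugars to foreign compounds, Ugt35C1 fell by 0.95 (SE 0.116, adjusted p = 0.000963), with the elav/+ arrays at 6.78 to 7.03 and the elav/v105975 arrays at 5.69 to 6.38. Its v105975/+ arrays, at 6.61 to 6.74, lay between the groups without overlap. The 3 higher calls of this family were lost without elav/+ replicate 3 or 4 or any of elav/v105975 replicates 1 to 4. Mdr65, an ABC transporter of the blood-brain barrier glia, rose by 0.39 (adjusted p = 0.00811). Of 36 antioxidant and cnc pathway genes 3 were called higher and 4 lower, among them maf-S, the small Maf partner of the oxidative stress factor cnc, which fell by 0.42, with the elav/+ arrays at 9.18 to 9.41 and the elav/v105975 arrays at 8.85 to 8.93. Without elav/+ replicate 3 or 4 there was no higher call and without elav/+ replicate 1 or elav/v105975 replicate 1 or 4 there was 1, and without elav/+ replicate 4 or elav/v105975 replicate 2 there were 2 lower calls.

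CG6660, which belongs to the family of very long chain fatty acid elongases, stood at 8.14, 8.22, 8.16, 8.13 and 8.10 in elav/v105975 and 6.29, 6.26, 6.04, 6.33 and 6.46 in elav/+, with no overlap and a small spread in each group. It rose 3.67-fold (log2 1.88, SE 0.071, adjusted p = 1.31e-07), and the v105975/+ arrays were at 8.02 to 8.24. Of 28 genes of fatty acid synthesis, elongation and desaturation 2 were called higher (7.14%) and 1 lower (3.57%). Over all probesets these shares were 2.98% and 3.96%. The calls beside CG6660 were a fall of Cyt-b5-r by 0.58 and a rise of ATPCL by 0.20 that was lost without any array but elav/+ replicate 1.

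**Figure D2:**
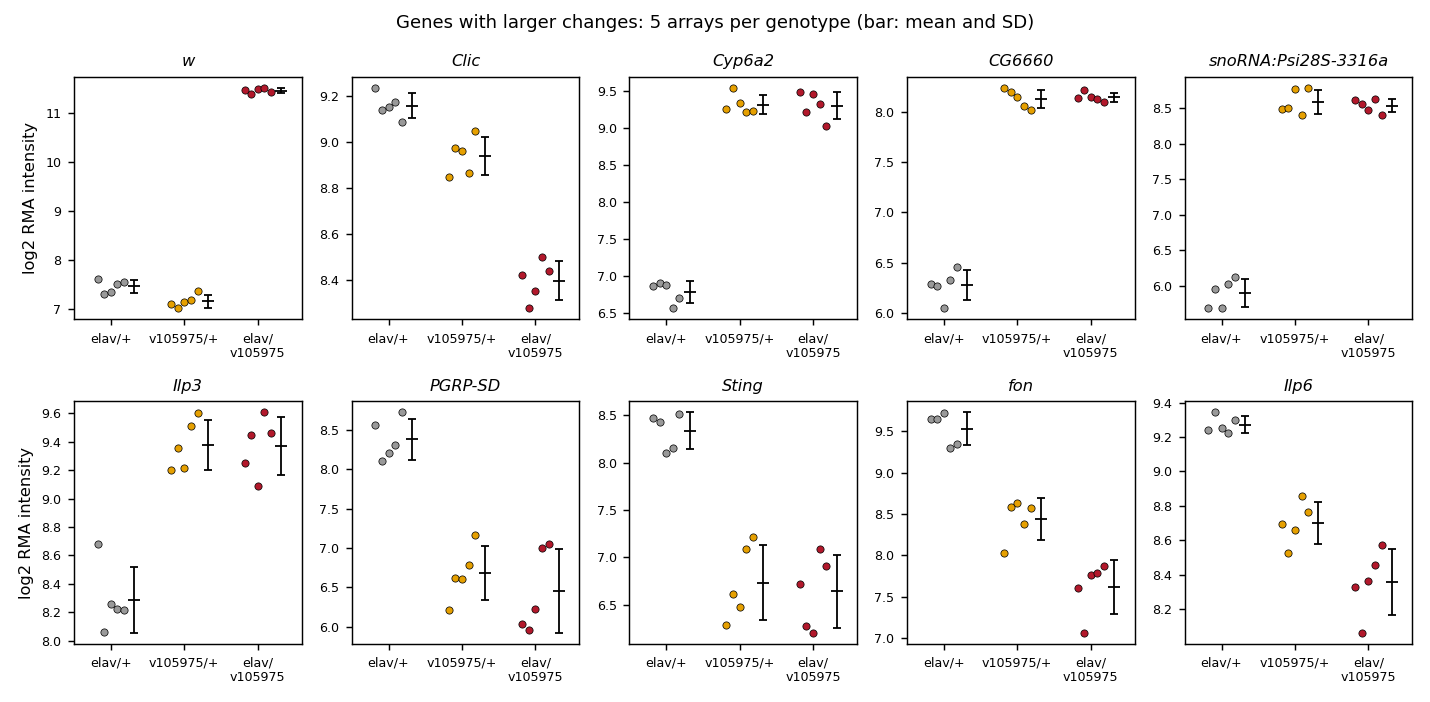
Log2 RMA intensity on each of the 5 arrays per genotype for 10 genes, with the mean and SD beside the points; each panel has its own axis, which does not start at 0. The elav/+ and elav/v105975 arrays do not overlap in any panel, and in v105975/+ the levels of Cyp6a2, CG6660, snoRNA:Psi28S-3316a, Ilp3, PGRP-SD and Sting overlap those of elav/v105975 while that of w does not.

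Called immune genes were lower in elav/v105975, with Tep4 as an exception. Of 14 genes of Sting and antiviral defence 7 were called lower and 0 higher, and the list median was -0.45 against -0.0017 over all probesets. Sting encodes the receptor of cyclic dinucleotides that turns on antiviral genes, and its arrays read 6.72, 6.28, 6.20, 7.09 and 6.91 in elav/v105975 and 8.48, 8.43, 8.11, 8.15 and 8.52 in elav/+. It fell by 1.70 (3.24-fold, SE 0.170, adjusted p = 0.000271), to the range of the v105975/+ arrays (6.29 to 7.21). Genes regulated by Sting were also lower in elav/v105975 than in elav/+. Srg3 fell by 1.90, with the elav/+ arrays at 6.20 to 6.99 and the elav/v105975 arrays at 4.06 to 5.32, and Srg1 fell by 1.502. Vago, a secreted antiviral peptide, fell by 1.41, with the elav/+ arrays at 9.36 to 9.62 and the elav/v105975 arrays at 7.46 to 8.58. The gene pst, which takes part in resistance to a virus of flies, fell by 0.41. The v105975/+ arrays ran from 3.72 to 5.91 for Srg3 and from 4.32 to 5.55 for Srg1. For Vago they ran from 7.29 to 8.71 and for pst from 8.81 to 9.10. The spread within elav/v105975 was wide for Srg3 (SD 0.528) against that of elav/+ (SD 0.310), with replicates 4 and 5 the highest of the group for Sting, Srg3, Srg1 and Vago.

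Of 35 antimicrobial peptide genes and their regulators 8 were called lower and 0 higher (median -0.20, 29 below 0). Bomanins are short peptides that the fat body secretes under Toll signalling. BomS5 read 8.49, 8.48, 8.71, 9.10 and 9.14 in elav/v105975 and 9.99, 9.67, 9.95, 10.15 and 10.46 in elav/+, a fall of 1.26 (SE 0.170, adjusted p = 0.00162), with v105975/+ from 9.04 to 9.84. BomT2 fell by 0.88. The antifungal peptide gene Mtk fell by 2.02, the largest fitted fall of the genes named, but with SE 0.495 and adjusted p = 0.0344, and values from 6.29 to 9.47 in elav/v105975. That call was lost without any of the elav/+ replicates or without elav/v105975 replicate 1 or 3. The list gave 5 calls without elav/+ replicate 2 or 4, and 4 without elav/+ replicate 3 or 5 or elav/v105975 replicate 1 or 3.

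PGRP-SD, a secreted protein that binds peptidoglycan ahead of the immune pathways, read 6.04, 5.96, 6.23, 6.997 and 7.05 in elav/v105975 and 8.56, 8.10, 8.20, 8.31 and 8.72 in elav/+. The fall of 1.92 (SE 0.228, adjusted p = 0.000794) was the largest of 35 genes of recognition, Toll and Imd signalling, of which 4 were called lower and 0 higher. GNBP3, which recognises fungal glucans, fell by 0.50. Among 29 thioester, clotting and melanization proteins, fon, a clotting factor of the haemolymph, read 7.61, 7.06, 7.76, 7.78 and 7.87 in elav/v105975, 8.03, 8.59, 8.64, 8.38 and 8.57 in v105975/+ and 9.65, 9.64, 9.72, 9.30 and 9.35 in elav/+. It fell by 1.92 (SE 0.150, adjusted p = 5.41e-05), and the 3 genotypes did not overlap. Tep4, a thioester protein that binds bacteria, was the one gene of the list that was called higher. Its arrays read 8.93, 8.84, 8.69, 8.71 and 8.62 in elav/v105975 against 8.10, 8.21, 8.21, 8.27 and 8.04 in elav/+ and 8.15, 7.80, 7.68, 7.94 and 7.77 in v105975/+ (log2 fold change 0.59, adjusted p = 0.000823). The 4 lower calls of this list became 2 without elav/+ replicate 3 or elav/v105975 replicate 2. The JAK-STAT pathway with the Turandot stress genes gave 0 calls among 19 genes with limma (4 at an unadjusted p under 0.05), and the heat shock proteins 0 among 21 (10 at an unadjusted p under 0.05).

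Genes of insulin signalling and growth were called in both directions. Ilp3, an insulin-like peptide of brain neurosecretory cells, read 9.25, 9.44, 9.09, 9.60 and 9.46 in elav/v105975, 8.68, 8.06, 8.26, 8.22 and 8.21 in elav/+ and 9.20, 9.35, 9.22, 9.51 and 9.60 in v105975/+. It rose by 1.08 (SE 0.123, adjusted p = 0.000652), with 1 elav/+ array, replicate 1, nearer to the other group than the rest. Ilp5, made by the same cells and chosen after its values were seen, rose by 0.60 with overlapping groups (adjusted p = 0.0337), and that call was lost without any of elav/+ replicates 2 to 5 or elav/v105975 replicates 2, 4 and 5. Ilp6, the insulin-like peptide of fat body and glia, fell by 0.91, with the elav/+ arrays at 9.22 to 9.34 and the elav/v105975 arrays at 8.06 to 8.57. ImpL2, a secreted protein that binds insulin-like peptides, fell by 0.98 (SE 0.085, adjusted p = 0.000109). Its elav/+ arrays ran from 6.90 to 7.33 and its elav/v105975 arrays from 5.92 to 6.19. The v105975/+ arrays ran from 5.61 to 6.25 for ImpL2 and from 8.53 to 8.86 for Ilp6. At bright probesets Thor, a repressor of translation that binds the cap-binding factor, fell by 0.40, and Myc, a transcription factor that promotes growth and was chosen after its values were seen, fell by 0.42. Of 32 genes of this list 2 rose and 6 fell.

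Enzymes of amino acid breakdown were called in 1 direction. This list was drawn up after its members' values had been seen, so its counts are a description. The remaining lists were chosen with earlier results of these data known, and their counts are descriptions as well. Of 46 genes 21 were called lower and 0 higher, 41 had a fold change below 0, and the list median was -0.28. Leaving out 1 array left 18 to 24 calls, and 17 were kept whichever array it was. Of the 21, 6 fell by at least 1.5-fold. Bcat, the branched-chain amino acid transaminase, read 7.51, 7.41, 7.32, 7.41 and 7.09 in elav/v105975 and 8.24, 8.31, 8.28, 8.08 and 8.81 in elav/+ (log2 fold change -0.99, SE 0.127, adjusted p = 0.00126), and v105975/+ ran from 7.27 to 7.77. Further down the branched-chain path Echs1 fell by 0.60, with the elav/+ arrays at 6.96 to 7.35 and the elav/v105975 arrays at 6.40 to 6.63.

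Several other routes of breakdown were represented. In the tyrosine and phenylalanine route Hn, phenylalanine hydroxylase, fell by 0.51, with the elav/+ arrays at 9.91 to 10.04 and the elav/v105975 arrays at 9.25 to 9.66, Tat, tyrosine aminotransferase, by 0.40 and Hpd, the next enzyme, by 0.59. The groups overlapped for Hpd because elav/+ replicate 5 read 8.08. Cbs, cystathionine beta-synthase of the methionine to cysteine route, fell by 0.55 (adjusted p = 0.000185) with a spread of at most 0.075 (SD) in either group. Its 5 v105975/+ arrays ran from 7.31 to 7.47, between the other 2 genotypes without overlap. Arginase, arg, fell by 0.82, LKRSDH, the first enzyme of lysine breakdown, by 0.56, and Agxt, a glyoxylate aminotransferase, by 0.63. Tmlh, the first enzyme of carnitine synthesis, which starts from trimethyllysine, read 8.37, 8.21, 8.44, 8.41 and 8.27 in elav/v105975 and 8.99, 8.95, 8.99, 8.91 and 8.99 in elav/+ (log2 fold change -0.62, adjusted p = 0.000111). Its v105975/+ arrays ran from 8.14 to 8.56. As given above, 16 of 20 fat body genes had a fold change below 0 and 2 were called lower, and their part in these falls was not tested.

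Nmdmc, the mitochondrial methylene-tetrahydrofolate dehydrogenase and one of the 4 lower calls among the antioxidant and cnc pathway genes, fell by 0.52, with the elav/+ arrays at 8.57 to 8.89 and the elav/v105975 arrays at 8.09 to 8.39. Of 12 genes of purine synthesis, a list also drawn up after its values were seen, 4 were called lower and 0 higher, with Paics at -0.58 and Adsl at -0.56. D2hgdh, which oxidises D-2-hydroxyglutarate, read 7.45, 7.47, 7.51, 7.50 and 7.58 in elav/v105975, 8.21, 8.08, 8.22, 8.05 and 8.36 in elav/+ and 7.96, 8.09, 8.09, 8.004 and 7.98 in v105975/+. It fell by 0.68 (SE 0.064, adjusted p = 0.000175), and here the undriven hairpin arrays lay at or near the driver-only range. Of 24 glycolysis and neighbouring genes 3 were called higher (12.5%) and 1 lower (4.17%). Tps1, trehalose phosphate synthase, fell by 0.45 and Gpdh1, glycerol-3-phosphate dehydrogenase, rose by 0.28 at one of the brightest probesets (11.40 to 11.57 against 11.10 to 11.26). The 86 subunits of oxidative phosphorylation gave 2 higher and 1 lower call (2.33% and 1.16%, median 0.06, 64 above 0). None of these calls was kept whichever array was left out. Over all probesets 2.98% were called higher and 3.96% lower.

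Lipid carriers of the haemolymph and lipid stores gave 6 lower calls of 36 and none higher. Apoltp, the lipid transfer particle, read 9.37, 9.35, 9.52, 9.37 and 9.59 in elav/v105975 and 10.04, 10.22, 10.21, 10.14 and 10.14 in elav/+ (log2 fold change -0.71, SE 0.062, adjusted p = 0.000112). Its v105975/+ arrays ran from 9.50 to 9.74. Lsd-1, the perilipin of lipid droplets, fell by 0.49 and Npc2h, a lipid-binding secreted protein, by 0.59. The main lipoprotein apolpp fell by 0.34 (adjusted p = 0.0425), a call that was kept only without elav/v105975 replicate 4 or 5. Yolk protein genes, among the brightest of the fat body, had log2 fold changes of -0.28 (Yp1), -0.46 (Yp2) and -0.59 (Yp3) and were not called (adjusted p = 0.074, 0.100 and 0.064). The storage protein gene Lsp2 varied more between arrays of 1 genotype than between the groups, at 6.84 ± 1.18 (SD, n = 5) against 6.80 ± 1.41 (SD, n = 5).

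**Figure D3:**
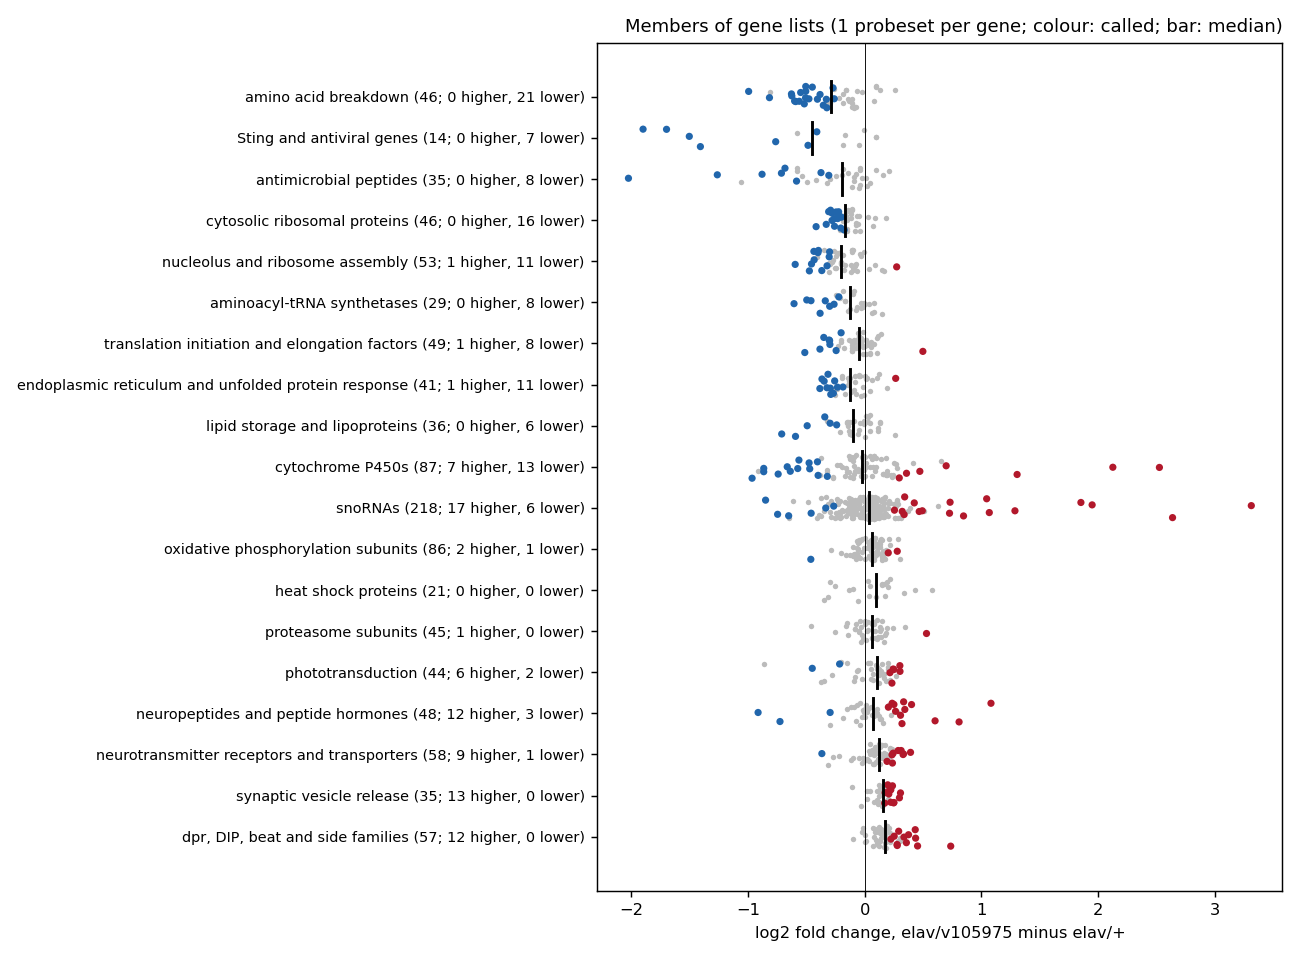
Log2 fold changes (elav/v105975 minus elav/+) of the members of 19 gene lists, 1 probeset per gene, with called members in red (higher) or blue (lower), other members in grey and the list median as a black bar; the label gives the number of members and of calls in each direction. Immune lists reach furthest to the left. By their medians the ribosome and endoplasmic reticulum lists lie a little left of 0 and the synaptic and wiring lists a little right of it. The list of amino acid breakdown, with a median of -0.28, was drawn up after its values were seen.

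Part of the genes of cytosolic translation fell, mostly by less than 1.5-fold. Of 46 cytosolic ribosomal protein genes 16 were called lower and 0 higher, 42 had a fold change below 0, and the list median was -0.17. None reached 1.5-fold. The brightest quartile, which holds 33 of these 46 genes, had 7.57% of its probesets called lower. RpS3 read 10.90, 10.83, 10.89, 10.87 and 10.92 in elav/v105975 and 11.17, 11.20, 11.22, 11.24 and 11.25 in elav/+ (log2 fold change -0.33, SE 0.042, adjusted p = 0.00127). RpS13 fell by 0.26, with the elav/+ arrays at 11.99 to 12.04 and the elav/v105975 arrays at 11.73 to 11.81. RpL4 fell by 0.31 and RpS26 by 0.42. The v105975/+ arrays ran from 10.87 to 11.03 for RpS3 and from 11.92 to 11.99 for RpS13. The 16 calls became 10 without elav/+ replicate 4 or 5 or elav/v105975 replicate 4. The 73 mitochondrial ribosomal proteins had 1 call higher and 2 lower, a smaller share of lower calls than the 3.96% of all probesets. The one that rose, mRpL37, gained 0.86 (SE 0.052, adjusted p = 9.55e-06), with the elav/+ arrays at 7.38 to 7.45 and the elav/v105975 arrays at 8.18 to 8.38, with v105975/+ at 8.20 to 8.40.

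Among factors that act with the ribosome or build it, most of the calls were lower. Of 49 translation initiation and elongation factors 8 were called lower (16.3%) and 1 higher (2.04%), with a median of -0.05. The brightest quartile, which holds 32 of these 49 genes, had 7.57% of its probesets called lower. Ef1beta, the exchange factor of elongation factor 1, read 10.67, 10.69, 10.84, 10.62 and 10.81 in elav/v105975, 10.95, 10.91, 10.95, 10.90 and 10.89 in v105975/+ and 11.13, 11.22, 11.24, 11.33 and 11.27 in elav/+. It fell by 0.51 (SE 0.060, adjusted p = 0.000725), with no overlap between any of the 3 genotypes. The initiation factor subunit eIF2beta fell by 0.38, and eIF2Bdelta, a subunit of its exchange factor, rose by 0.50. Of 29 aminoacyl-tRNA synthetases, which load amino acids onto tRNAs, 8 fell and 0 rose (median -0.13), with AsnRS at -0.61, IleRS at -0.50 and LeuRS at -0.46. AsnRS was at 6.07 to 6.44 in elav/+ and 5.58 to 5.74 in elav/v105975, with v105975/+ between them at 5.83 to 6.03. Of 53 genes of the nucleolus and ribosome assembly 11 fell and 1 rose, 48 were below 0, and the median was -0.20. Only 5 of these 53 lay in the brightest quartile. The core proteins of snoRNA particles nop5 and Nop56 fell by 0.47 and 0.43, and bys, which acts in assembly of the small subunit, by 0.40. The 11 calls became 7 without elav/+ replicate 3 or 4 and 5 without elav/v105975 replicate 2.

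The list of the endoplasmic reticulum and its protein quality control had 11 of 41 genes called lower and 1 higher, 9 above 0, none of the calls at 1.5-fold and a median of -0.13. Sec61alpha, the channel through which secreted proteins enter, read 10.71, 10.62, 10.62, 10.72 and 10.57 in elav/v105975 and 11.09, 10.92, 11.04, 11.001 and 11.09 in elav/+ (log2 fold change -0.38, SE 0.053, adjusted p = 0.00196). Its v105975/+ arrays ran from 10.73 to 10.98. Der-1, which acts in the export of misfolded proteins, fell by 0.37, Manf, a secreted neurotrophic factor of the reticulum, by 0.29 and the chaperone Gp93, chosen after its values were seen, by 0.31. Leaving out 1 array left 9 to 11 lower calls. Of the 41 genes 29 lay in the brightest quartile, in which 7.57% of probesets were called lower. The proteasome gave 1 higher call of 45 (2.22%) and the Rab GTPases 1 of 31 (3.23%). Autophagy gave 1 higher and 1 lower of 28 (3.57% each), and the vacuolar ATPase 2 higher of 34 (5.88%). Over all probesets 2.98% were called higher and 3.96% lower, so these few calls are not read as a change. Neither call of the vacuolar ATPase was kept when any array was left out.

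Part of the synaptic genes rose, by small amounts. Of 35 genes of synaptic vesicle release 13 were called higher and 0 lower, 33 had a fold change above 0, and the median was 0.16. None reached 1.5-fold, and 29 of the 35 lay in the brightest quartile, in which 6.13% of probesets were called higher. nwk, an adaptor that shapes synaptic growth, rose by 0.30, with the elav/+ arrays at 8.84 to 9.06 and the elav/v105975 arrays at 9.18 to 9.31. comt, the ATPase NSF that frees SNARE proteins after fusion, rose by 0.31 (SE 0.056, adjusted p = 0.00919). Rab3, the GTPase of synaptic vesicles, read 10.42, 10.53, 10.39, 10.42 and 10.45 in elav/v105975 and 10.33, 10.16, 10.20, 10.15 and 10.13 in elav/+ (log2 fold change 0.25, adjusted p = 0.0169). Its v105975/+ arrays ran from 10.32 to 10.55. The number of calls depended on single arrays, with 6, 5, 7 and 7 higher calls without elav/+ replicates 2, 3, 4 and 5, and 4 and 7 without elav/v105975 replicates 2 and 3. The 14 neuronal marker genes all had a fold change above 0, with 4 called, and their part was not tested.

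Of 58 receptors and transporters of neurotransmitters 9 were called higher (15.5%) and 1 lower (1.72%), with a median of 0.12. Of these 58 genes 27 lay in the brightest quartile, in which 6.13% of probesets were called higher. VGAT, which loads GABA into vesicles, read 9.01, 9.15, 9.11, 9.16 and 9.02 in elav/v105975, 8.67, 8.59, 8.67, 8.80 and 8.76 in elav/+ and 8.92, 8.96, 8.80, 8.96 and 8.92 in v105975/+, a rise of 0.39 (SE 0.057, adjusted p = 0.00239). Eaat2, a transporter of excitatory amino acids, rose by 0.31, the acetylcholine receptor subunit nAChRalpha5 by 0.29 and the glutamate receptor Ekar by 0.33. The list of transmitter synthesis, which also holds VGAT, had 4 higher and 2 lower calls among 23 genes (median -0.02, 12 below 0). Of these Ddc, dopa decarboxylase of the dopamine and serotonin routes, rose by 0.49 (adjusted p = 0.000498), with the elav/+ arrays at 9.82 to 10.02 and the elav/v105975 arrays at 10.32 to 10.44, while v105975/+ ran from 9.96 to 10.12, below the elav/v105975 range. Trh, tryptophan hydroxylase of serotonin synthesis, rose by 0.39 and Gad1, glutamate decarboxylase of GABA synthesis, by 0.27. The lower calls were Hn, described above, and b, a decarboxylase that makes beta-alanine and was chosen after its values were seen (-0.39). Of 40 voltage-gated channel genes 2 were called higher (5%) and 0 lower, with 35 above 0. The brightest quartile, which holds 32 of these 40 genes, had 6.13% of its probesets called higher. tipE, an auxiliary subunit of the sodium channel, rose by 0.30, and the other call was kept only without elav/+ replicate 1.

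Immunoglobulin proteins of the dpr, DIP, beat and side families, which mark neurons for their synaptic partners, gave 10 higher calls of 53 and 0 lower, with 50 above 0 and a median of 0.17. The list also held 4 other immunoglobulin proteins, of which klg and wrapper were called higher. Leaving out 1 array gave 8 to 14 higher calls on the list, against 12 with all arrays. Of these 12 calls 7 were kept whichever array was left out. klg, a homophilic adhesion protein, read 8.90, 8.90, 8.998, 8.85 and 8.88 in elav/v105975, 8.74, 8.81, 8.77, 8.76 and 8.74 in v105975/+ and 8.20, 8.13, 8.20, 8.17 and 8.14 in elav/+. It rose by 0.74 (SE 0.045, adjusted p = 1.05e-05), with no overlap among the 3 genotypes. dpr19 rose by 0.36, beat-IIa by 0.45 and wrapper, a surface protein of glia, by 0.43.

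Of 48 genes of peptide signals 12 were called higher (25%) and 3 lower (6.25%). The brightest quartile, which holds 21 of them, had 6.13% of its probesets called higher. Beside the insulin-like peptides, Eh, eclosion hormone, rose by 0.81 at a probeset of the dimmest quartile, with the elav/+ arrays at 3.29 to 3.76 and the elav/v105975 arrays at 3.99 to 4.53. The smaller rises were those of the bright probesets of sNPF (0.25), Proc (0.34) and amon, the convertase that processes peptide precursors (0.31). CNMa fell by 0.73 (adjusted p = 0.0143), and like sNPF was chosen after its values were seen. The 12 higher calls became 7 without elav/+ replicates 3, 4 or 5 or elav/v105975 replicate 1, and 6 without elav/v105975 replicate 2.

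**Figure D4:**
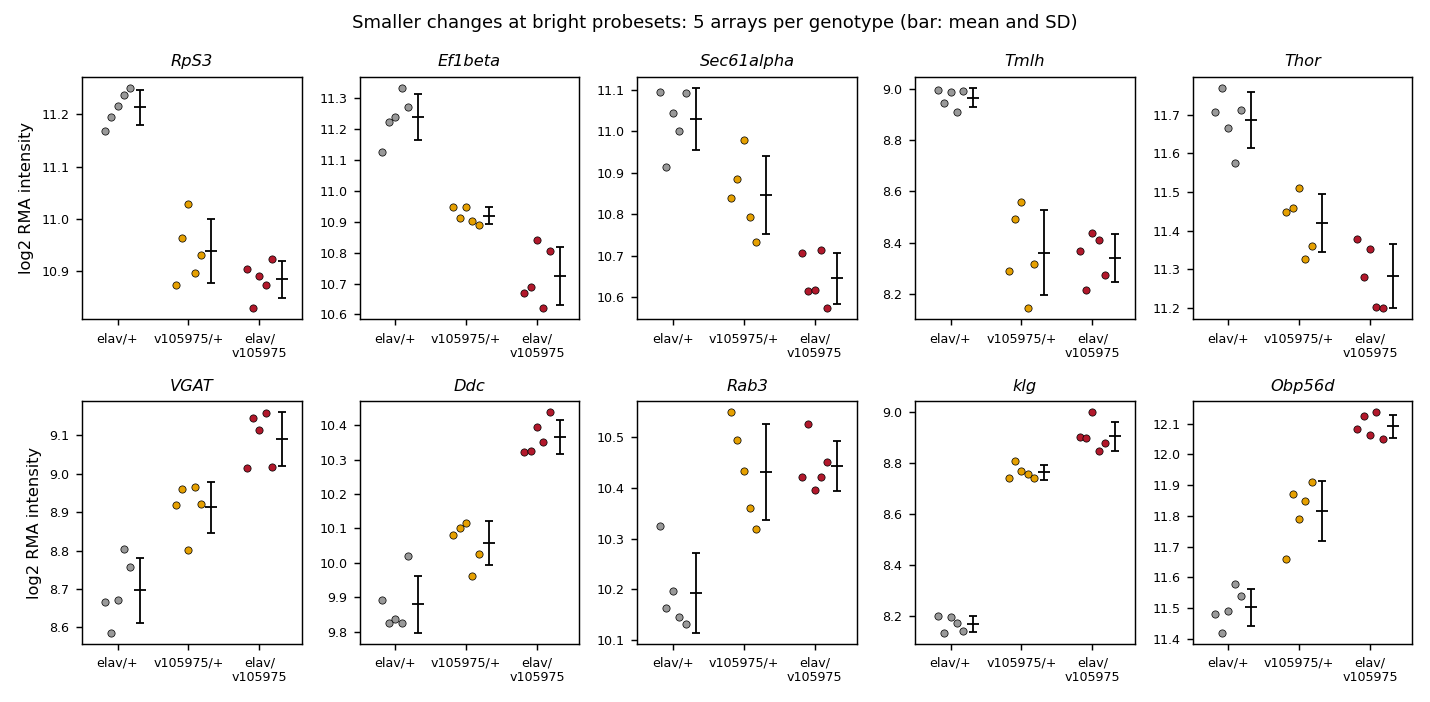
Log2 RMA intensity on each of the 5 arrays per genotype for 10 genes with changes mostly below 1.5-fold, with the mean and SD beside the points; each panel has its own axis, which does not start at 0. RpS3, Ef1beta, Sec61alpha, Tmlh and Thor are lower and VGAT, Ddc, Rab3, klg and Obp56d higher in all 5 elav/v105975 arrays than in any elav/+ array.

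Some sensory genes were called. Of 44 phototransduction genes 6 rose and 2 fell (median 0.10). These are 13.6% and 4.55%, against 2.98% and 3.96% of all probesets. Of the 44 genes 34 lay in the brightest quartile, in which 6.13% of probesets were called higher and 7.57% lower. Rh4, an ultraviolet opsin of the eye, rose by 0.30, with the elav/+ arrays at 11.98 to 12.07 and the elav/v105975 arrays at 12.20 to 12.47, and norpA, the phospholipase C of the light response, by 0.22. Rh7, an opsin that also occurs in clock neurons, fell by 0.45 (adjusted p = 0.00274). The 6 higher calls became 3 without elav/+ replicate 3 or elav/v105975 replicate 2. Of 47 odorant-binding proteins 3 rose (6.38%) and 4 fell (8.51%), the latter being 2 without elav/+ replicate 3 or 4. Obp56d, at one of the brightest probesets, read 12.08, 12.12, 12.06, 12.14 and 12.05 in elav/v105975, 11.66, 11.87, 11.79, 11.85 and 11.91 in v105975/+ and 11.48, 11.42, 11.49, 11.58 and 11.54 in elav/+ (log2 fold change 0.59, SE 0.047, adjusted p = 6.05e-05). Obp44a, expressed in glia, rose by 0.54 and Obp56h by 0.77. Among 174 odorant, gustatory and ionotropic receptors, none in the brightest quartile, 2 rose and 2 fell. That is 1.15% in each direction, below the shares of all probesets. Of these receptors Ir41a rose by 1.05, with the elav/+ arrays at 3.997 to 4.66 and the elav/v105975 arrays at 5.01 to 5.42. Leaving out 1 array left 1 to 3 higher and 0 to 3 lower calls among these receptors.

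Among single genes outside these groups, mthl8, a member of the methuselah receptor family, fell by 0.86 (adjusted p = 1.08e-05). Its elav/+ arrays were at 7.21 to 7.41 and its elav/v105975 arrays at 6.44 to 6.58. Of the 16 members of that family 3 were called, all lower (18.8%, against 3.96% of all probesets). The family's median was 0.02, with 8 members above 0. The 3 calls became 2 without elav/+ replicates 2, 4 or 5 or elav/v105975 replicates 2 or 3. numb, an inhibitor of Notch signalling, rose by 0.60 (SE 0.049, adjusted p = 6.24e-05). Its arrays read 8.72, 8.63, 8.55, 8.67 and 8.65 in elav/v105975, 8.20, 8.21, 8.21, 8.30 and 8.19 in v105975/+ and 8.12, 8.03, 8.03, 8.05 and 7.98 in elav/+, so the undriven hairpin arrays lay nearer to the driver-only ones. rl, the ERK kinase, fell by 0.38, with v105975/+ (9.25 to 9.44) overlapping elav/+ (9.25 to 9.41). mre11, a DNA repair nuclease chosen after its values were seen, fell by 0.80. Numbered gene models were prominent among large changes. CG31909 rose by 2.66, with the elav/+ arrays at 4.36 to 5.51 and the elav/v105975 arrays at 7.69 to 7.80, CG43182 by 1.42 and CG18095 by 1.62, and CG4269 fell by 1.88 and CG9822 by 1.33. The files do not pair these genes with a function.

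Calls were found on every chromosome arm. The share called was 8.28% on 2L, 8.19% on 2R, 5.93% on 3L, 7.21% on 3R and 5.35% on X. On the small chromosome 4, 18 of 70 probesets were called (25.7%), 16 of them higher, and the median of its probesets was 0.15. These 70 probesets were bright, 82.9% of them in the brightest quartile, and within that quartile 31.0% of the chromosome's 58 were called against 13.7% of all. Ekar and apolpp, described above, are genes of this chromosome. Of the genes that mark sex, lncRNA:roX1, an X chromosome dosage compensation RNA of males, fell by 0.73 (adjusted p = 0.00322), with the elav/+ arrays at 6.67 to 7.19 and the elav/v105975 arrays at 5.87 to 6.37, whereas lncRNA:roX2, the other such RNA, was not called (log2 fold change -0.10, adjusted p = 0.652), and neither were tra (-0.12, adjusted p = 0.392) and Yp3. dsx, the switch gene of sexual development, was chosen after its values were seen and fell by 0.32.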

How the data were processed

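Total RNA from whole fly heads was hybridized to 15 Affymetrix Drosophila Gene 1.0 ST arrays, 5 per genotype, and the 10 arrays of elav/v105975 and elav/+ were compared. The authors deposited a log2 intensity for each probeset, made by RMA (background correction, quantile normalization and probe summary; oligo 1.44.0 in the submitters' processing notes). Because RMA aligns the distributions of all arrays, a shift common to most transcripts is not seen. limma 3.58.1 (R 4.3.3) was applied to these values as they were, by lmFit and eBayes with defaults, and p-values of all 16322 probesets were adjusted together by the Benjamini-Hochberg method. All columns of the table belonged to a sample.

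Gene names came from the platform annotation. Of the probesets 13441 carried 1 symbol, of which 13064 were updated through Entrez identifiers, 555 carried several and were not named, and 209 without a symbol, w among them, were named from the study's supplementary tables. Lists used 1 probeset per gene, the one with the highest mean. For dom, 3 probesets disagreed and no value is given.

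Members, gene lists and the naming rule were chosen with earlier results of these data known. The rule takes the 20 highest and 20 lowest changes among calls without overlap, up to 5 called members of each list by p, the 4 highest and 4 lowest calls in each quartile of intensity, Clic, w, elav, tio, cell type markers and the 10 smallest p. It names 254 genes. Of 119 genes described with their arrays 98 are among them, and those printed were picked for their role and for a call kept without any array. The other 21, all enzymes of amino acid breakdown and purine synthesis except Hn and Nmdmc among them, were chosen after their values were seen. A result that needs a withheld item is not reported here. The fit was tested on simulated arrays with known changes. Alternatives were an adjusted p of 0.01, a fit of 15 arrays, a block for the replicate number, array weights, a robust or intensity-dependent prior variance, removal of the dimmest 25%, median centring, a repeated quantile normalization, adjustment restricted to probesets that have a symbol, removal of each array and, added after seeing the data, counting probesets of identical values once.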

Additional observations from a re-analysis of the deposited data

Results flagged for a closer look

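Among 238 groups of 5 arrays (119 genes in both genotypes) 15 held 1 array that stood far from the other 4, with a gap to the nearest array above 0.71 of the group's range. Chance flags about 1 group in 20. Of the 15, 6 were due to elav/+ replicate 2 or elav/v105975 replicate 2 being low in GNBP3 (gap 0.717 of the range), pst (0.746), Hn (0.737), amon (0.799), Cyp6g1 (0.762) and Lsd-1 (0.739). The level of elav/+ replicate 2 was 7.74 for GNBP3, 9.30 for pst, 9.91 for Hn and 8.48 for amon, and that of elav/v105975 replicate 2 was 8.14 for Cyp6g1 and 9.01 for Lsd-1. For Srg1 elav/+ replicate 2 was the highest of its group at 6.53, against 6.18 for the next array (0.866). Hpd was low in elav/+ replicate 5 (8.08 against 8.61 for the next array, 0.802), and CG18095 was high in the same array (4.597 against 4.075, 0.721). Ir41a was high in elav/+ replicate 4 (4.66 against 4.15, 0.764) and mthl8 low in elav/+ replicate 1 (7.21 against 7.39, 0.869). In elav/v105975, snoRNA:Psi18S-301 was low (6.99 against 7.30, 0.843) and dsx high (7.21 against 7.06, 0.845) in replicate 4, Gad1 was low in replicate 3 (10.94 against 11.03, 0.825) and Proc low in replicate 5 (8.99 against 9.14, 0.795). All 15 of these genes were called whichever array was left out, which was part of the grounds on which printed genes were picked.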

How the results depend on the processing

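Clic kept its direction and its call under all alternatives run (log2 fold change -0.79 to -0.73 over single arrays left out). The 486 higher and 646 lower calls became 258 and 467 with the replicate number as a block, 792 and 942 with an intensity trend, and 156 and 222 at an adjusted p of 0.01. Leaving out 1 array gave 260 to 459 higher calls, 393 to 586 lower calls and 174 to 233 of at least 1.5-fold, against 216. The cause of these differences was not tested, beyond the smaller number of arrays. Counting probesets of identical values once, and all other alternatives, kept the 3 counts within 1.5 times. Centring on medians gave 577 higher and 578 lower calls. Of the 117 called genes described with their arrays, 114 kept the call whichever array was left out. Apolpp, Mtk and Ilp5 were the exceptions. Because these genes were picked in part for a kept call, that count follows from the choice. Over all calls 576 of 1132 were kept. None of the 117 changed direction in any fit.

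Replicate numbers occur in both genotypes, but arrays of the same number did not deviate together (correlations of deviations -0.005, 0.107, 0.094, -0.026 and -0.016), and 1 of 5 correlated best with its own number. With the replicate block 8 of the 117 genes lost the call (apolpp, Mtk, Gp93, comt, Rab3, tipE, Rh4 and norpA). The precision is limited by 5 arrays per genotype and by the spread of dim probesets.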

Other observations

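Further gene groups are given here with their calls, beside 2.98% called higher and 3.96% called lower over all probesets. The lists of neprilysin-like peptidases, imaginal disc growth factors, chaperonins and sarcoglycans were drawn up after their values had been seen, so their counts are descriptions. Neprilysin-like peptidases, zinc enzymes that cut short peptides, had 6 of 26 members lower and 1 higher, with log2 fold changes of -0.96 for Nepl4, -0.89 for Nep7 and -0.64 for Nep6. The imaginal disc growth factors, secreted relatives of chitinases, were all below 0 in their 6 genes, and 3 were called lower, with Idgf1 at -0.78 and Idgf2 at -0.41. Subunits of the chaperonin CCT and of prefoldin, which fold actin and tubulin, had 5 of 15 lower and 0 higher, with CCT7 at -0.40 and CCT5 at -0.35. These 5 calls became 1 without elav/v105975 replicate 2 and 2 without elav/+ replicate 5 or elav/v105975 replicate 3, and 3 without elav/+ replicates 1, 3 or 4 or elav/v105975 replicates 1 or 5. Of 8 sarcoglycan and dystroglycan genes, which anchor the muscle and glial membrane, 3 were higher, by 0.32 (Scgalpha), 0.27 (Scgbeta) and 0.24 (Scgdelta), and 1 remained higher without elav/+ replicates 1, 2 or 4 or elav/v105975 replicates 1 or 2.

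Metal handling had 5 of 38 genes lower and 0 higher, led by the metallothionein MtnD at -0.75. The 5 became 2 without elav/+ replicate 2 or 4, and 3 without elav/+ replicate 3 or 5 or elav/v105975 replicates 2, 4 or 5. The lists that follow held few calls and are given for their named genes, not as groups that changed. Cuticular proteins had 6 of 126 higher and 1 lower (4.76% and 0.794%), and the higher calls ranged from 4 to 9 over single arrays left out. The one that fell was Cpr64Ac, at -0.96, and Cpr11B (0.66), TwdlG (0.53) and Vajk4 (0.50) rose. Among 28 muscle genes 2 were called higher, tn by 0.67 and the myosin heavy chain gene Mhc by 0.37, and 2 lower, TpnC73F and Mp20, which bind calcium, by 0.50 and 0.30. The 2 higher calls became 3 without elav/+ replicate 1 and 1 without elav/+ replicates 2, 3 or 4 or elav/v105975 replicates 1, 2, 4 or 5. Of 35 genes of small RNA pathways 1 was called higher, squ at 0.28, and 2 lower, AGO3, an Argonaute of the piRNA pathway, at -0.70 and del at -0.31. The higher call was lost without any array other than replicate 5 of either genotype, and 1 lower call was left without any array other than elav/+ replicate 1 and elav/v105975 replicate 5. Clic was the only one of 21 chloride channel genes that was called lower, and kcc, a potassium chloride cotransporter, was called higher at 0.25, a call lost without elav/+ replicate 4. Among 28 circadian clock genes 2 were called higher and 1 lower, and the higher calls became 6 without elav/+ replicate 5 and 1 without any of the other arrays except elav/v105975 replicate 5.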
